A study of Mus musculus with 6 samples.

Results

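The 10 genes described here encode the core of the cellular antioxidant system and enzymes linked to the transcription factor NRF2. They are the superoxide dismutase genes Sod1 and Sod2, the peroxide-removing enzymes Cat and Gpx1, the quinone reductase Nqo1, the glutathione synthesis genes Slc7a11, Gclc and Gclm, and the thioredoxin system genes Txnrd1 and Srxn1. They were chosen by name, with earlier results of these arrays known. Each had exactly 1 row on the array that carried its symbol alone, so all 10 were measured among 19938 genes tested. RNA came from liver CD11b+Gr-1+ cells, labelled MDSC (myeloid-derived suppressor cells), with 3 arrays from C57BL/6 mice given concanavalin A (Con A) and 3 from C57BL/6 mice given PBS. Every mouse, in either group, carried an EL4 tumour, a transplantable mouse T cell lymphoma, and livers were taken 3 hours after the injection. Con A is a lectin from jack beans, used in mice to provoke a hepatitis driven by T cells. Its dose is unsettled, since the design text has 12.5 mg/kg while the treatment label has 12.5 ug/kg, and the PBS samples are titled untreated. With 3 mice named per group and no statement of which mouse gave which array, p-values here cover the spread between arrays, part of which may be technical.

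Aerobic cells turn superoxide into hydrogen peroxide with superoxide dismutases, SOD1 in the cytosol and SOD2 in mitochondria, and remove the peroxide with catalase, glutathione peroxidases and peroxiredoxins. The last 2 kinds of enzyme draw reducing power from glutathione and thioredoxin, which are themselves recharged with NADPH. NRF2, encoded by Nfe2l2, is held down by KEAP1 in resting cells, and after oxidative or electrophilic stress it pairs with small MAF proteins at antioxidant response elements upstream of genes such as Nqo1, Gclm and Srxn1. Phagocytes need this system because their own NADPH oxidase releases superoxide, and myeloid suppressor cells are known for using reactive oxygen against T cells.

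Itgam and Ly6g encode proteins used in the sort (CD11b and part of Gr-1), while S100a8 and S100a9 are myeloid genes listed with them. All 4 stood between 12.73 and 13.71 on the log2 scale on every array. By limma, 0 of these 4 genes differed between the groups (0 at an unadjusted p under 0.05). These 4 genes lie near the top of the array's scale, where differences are compressed. Another listed sort marker, Ly6c2, had no matched row. Lists of cell type markers differed between arrays. The mean of 5 monocytic markers was 8.94, 9.53 and 9.56 on the Con A arrays and 11.04, 10.63 and 10.99 on the PBS arrays, and 3 of the 5 fell. The mean of 5 eosinophil markers was 9.74, 9.21 and 9.75 on the Con A arrays and 8.55, 9.20 and 8.68 on the PBS arrays, and 3 of the 5 rose. Over all genes, 4.59% rose and 7.22% fell. What part these marker lists had in the results on the 10 genes was not tested. Con A replicate 2 had the highest mean of 8 Kupffer cell markers, at 9.02 against 7.03 to 7.72 on the other 5 arrays, and of 9 hepatocyte markers, at 7.17 against 6.38 to 6.49. PBS replicate 3 had the highest mean of 6 NF-kB target genes among the PBS arrays, at 11.11 against 10.49 and 10.28. Array medians lay between 7.05 and 7.08. The array quality weight of limma, lower for arrays that differ more from their group, was lowest for PBS replicate 3. It was 0.53 there, against 0.82 to 1.31 on the other 5 arrays.

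Of the 10 genes, 4 differed between Con A and PBS. Sod2 rose 1.64-fold after Con A, while Cat fell 1.42-fold, Nqo1 fell 1.36-fold and Sod1 fell 1.30-fold. The other 6 genes did not pass the test, and 5 of these had overlapping groups. Over all 19938 genes, 11.8% passed the same threshold, an adjusted p under 0.05 by limma with Benjamini-Hochberg adjustment, 4.59% of them higher and 7.22% lower as shares of all genes. Among the 10984 genes with a mean of at least 7, which all 10 genes exceeded, the share was 19.6%. The groups did not overlap in 5 of the 10 genes, 1 higher and 4 lower after Con A, where 29.9% of all genes had groups that did not overlap (14.4% higher and 15.6% lower). The median difference of the 10 genes was -0.10 on the log2 scale, beside a median of 0.02 over all genes. In sorted cells, fewer cells of a type and less RNA per cell cannot be told apart.

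**Figure D1:**
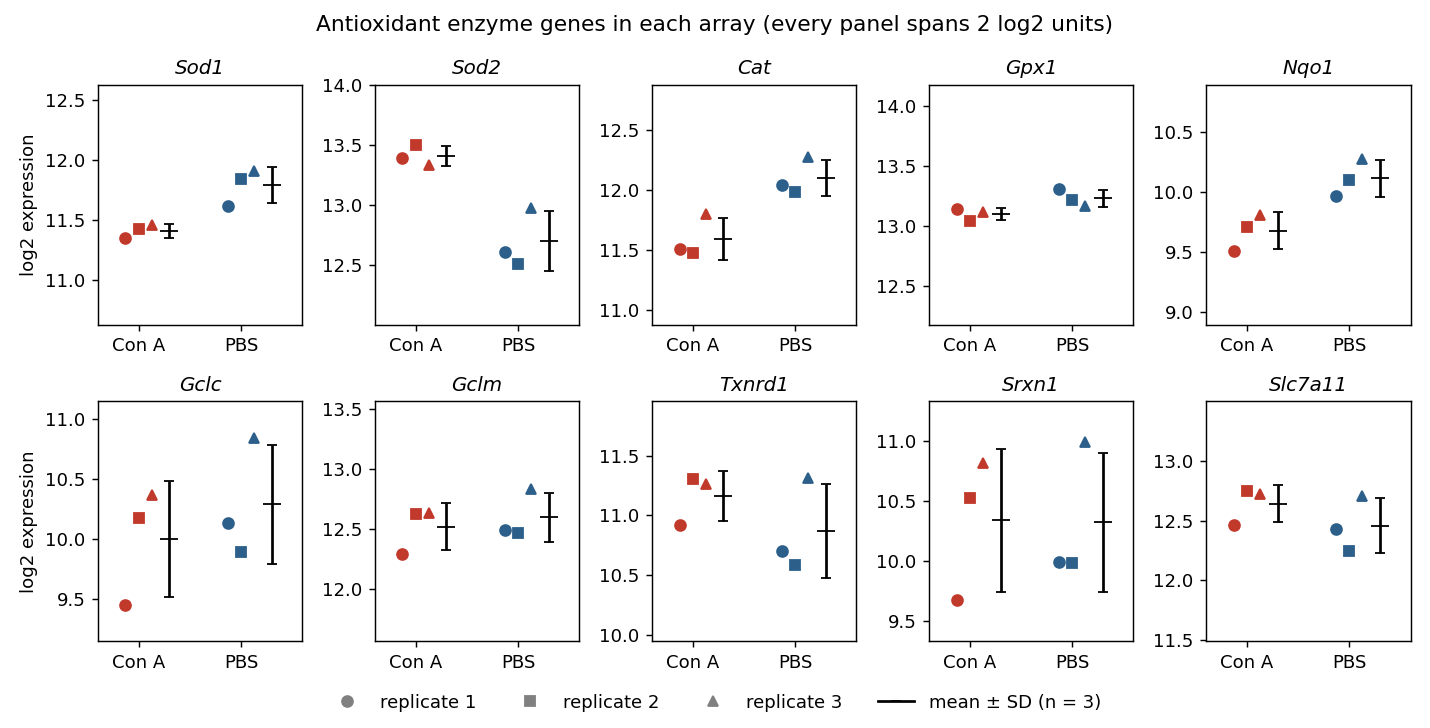
Log2 expression of the 10 genes on each array, Con A on the left and PBS on the right of every panel, with each replicate as a point and the mean ± SD (n = 3) beside it. Every panel spans 2 log2 units, so that distances can be compared between genes; Sod2 is the 1 gene with all Con A arrays above all PBS arrays, and Sod1, Cat, Gpx1 and Nqo1 have all Con A arrays below them.

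The 2 dismutase genes moved in opposite directions. Sod2, the mitochondrial manganese enzyme that tumour necrosis factor and interleukin-1 are known to induce through NF-kB, stood at 13.39, 13.50 and 13.34 after Con A, against 12.61, 12.51 and 12.98 after PBS. All 3 Con A arrays lay above all PBS arrays, and the PBS array nearest to them was replicate 3. The difference was 0.71 (95% interval 0.41 to 1.01; mean 13.41 ± 0.08 after Con A and 12.70 ± 0.25 after PBS; SD, n = 3 each), with an adjusted p of 0.0125 by limma. The gene lies near the top of the array's scale, which ended at 14.24 or above on every array, and there differences are compressed. Its call ended when Con A replicate 2 was left out (adjusted p = 0.0602) or PBS replicate 1 (0.0633), while the difference stayed between 0.61 and 0.85 with 1 array left out.

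Sod1, the copper and zinc enzyme of the cytosol, stood at 11.34, 11.43 and 11.46 after Con A, against 11.62, 11.84 and 11.90 after PBS. The Con A arrays lay close together and below every PBS array. Sod1 fell by 0.38 on the log2 scale (95% interval -0.60 to -0.16; 11.41 ± 0.06 after Con A and 11.79 ± 0.15 after PBS), with an adjusted p of 0.0413. That call held without PBS replicate 1 (0.0333) and ended with any other array left out, at adjusted p of 0.126, 0.114 and 0.0923 without Con A replicates 1, 2 and 3, and 0.12 and 0.0789 without PBS replicates 2 and 3. Within each array the ratio of Sod2 to Sod1, set to a mean of 0 over the PBS arrays, was 1.14, 1.16 and 0.97 on the log2 scale after Con A, against 0.08, -0.24 and 0.16 after PBS. The ratio was thus 2.13-fold higher after Con A, a description of a pair picked after its values were seen, with no test. Its separation was fixed in advance, since both genes had groups that did not overlap and moved in opposite directions. Sod3, the third dismutase, which is secreted, stood at 6.34 ± 0.07 after Con A and 6.50 ± 0.08 after PBS, below the array medians, and did not pass (difference -0.16, 95% interval -0.35 to 0.02, adjusted p = 0.261).

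The promoters of the dismutase genes are shown with the motif matches they hold. Sequences are RefSeq's, build GRCm38.p6, and cover up to 250 bases before the start of the gene, which 9 of the 10 genes had. Gclc had no such sequence and was not searched. They are printed along the gene's strand, with capitals marking a match. Sod2 (chr17:13007726-13007795, plus strand) has 1 match to the NF-kB consensus, and Sod1 (chr16:90220676-90220744, plus strand) has 1 match to the antioxidant response element core TGACNNNGC, read on the opposite strand.
Sod2: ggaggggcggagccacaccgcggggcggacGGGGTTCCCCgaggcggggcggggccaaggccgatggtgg
Sod1: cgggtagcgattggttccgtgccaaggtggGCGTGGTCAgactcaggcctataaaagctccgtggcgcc
Both strands were searched, and no match overlapped one of another motif in the windows printed here. The NF-kB consensus was found in 9.49% of 15614 tested genes with a promoter, and the antioxidant response element core in 12.5%. Of the 9 genes with a promoter, 3 held the NF-kB consensus (Sod2, Cat and Gpx1) and 3 the antioxidant response element core (Sod1, Gclm and Txnrd1). Of the 3 genes with the NF-kB consensus, Sod2 rose, Cat fell and Gpx1 did not pass the test. A match is a run of letters, not a measured site. Whether a match had a part in any difference was not tested.

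Of the peroxide-removing enzymes Cat and Gpx1, Cat fell after Con A and Gpx1 did not pass the test. Cat encodes catalase, which breaks down hydrogen peroxide in peroxisomes without a cofactor of reduced thiols, and it stood at 11.50, 11.48 and 11.79 after Con A, against 12.04, 11.98 and 12.27 after PBS. The groups did not overlap, and replicate 3 was the highest array in each. Cat fell by 0.51 on the log2 scale (95% interval -0.78 to -0.23; 11.59 ± 0.18 after Con A and 12.10 ± 0.15 after PBS; adjusted p = 0.0327). The call ended without Con A replicates 1 and 2 (0.103 and 0.122) and without PBS replicates 1 and 3 (0.0917 and 0.0538). Catalase is abundant in liver parenchyma and in red cells. Con A replicate 2, the array with the most hepatocyte signal, had the lowest Cat value, and without that array the difference of Cat was -0.45 (adjusted p = 0.122). Whether hepatocyte RNA had a part in the Cat values was not tested. Erythroid markers had a mean of 6.58 to 6.65 on the Con A arrays and 6.40 to 6.56 on the PBS arrays.

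Gpx1, the glutathione peroxidase of the cytosol and mitochondria, stood at 13.14, 13.04 and 13.12 after Con A, against 13.31, 13.22 and 13.17 after PBS. The 2 groups lay side by side without overlapping, with 13.14 as the highest Con A value and 13.17 as the lowest PBS value. Its difference of -0.13 did not pass (95% interval -0.30 to 0.04, adjusted p = 0.341), and it too lies near the top of the scale. Relative to the PBS mean, the ratio of Sod2 to Cat within each array was 1.29, 1.42 and 0.94 on the log2 scale after Con A. After PBS it was -0.03, -0.08 and 0.11. The ratio was 2.33-fold higher after Con A on average, again with no test. Because neither gene's groups overlapped and the 2 genes moved in opposite directions, the separation of this ratio was fixed in advance. The pair was picked after its values were seen.

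Nqo1 encodes a flavoenzyme that reduces quinones by 2 electrons, and it is among the most used readouts of NRF2 activity. It stood at 9.51, 9.71 and 9.81 after Con A, against 9.97, 10.10 and 10.28 after PBS. No Con A array reached the lowest PBS array. Nqo1 fell by 0.44 on the log2 scale (95% interval -0.70 to -0.18; 9.68 ± 0.15 after Con A and 10.12 ± 0.15 after PBS), with an adjusted p of 0.0459, close to the threshold. Leaving out any 1 of the 6 arrays ended the call, with adjusted p between 0.0626 and 0.128 and differences of -0.51 to -0.36. The 250 bases before the start of Nqo1 held no match to the 3 motifs searched, and bases further upstream were not searched.

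**Figure D2:**
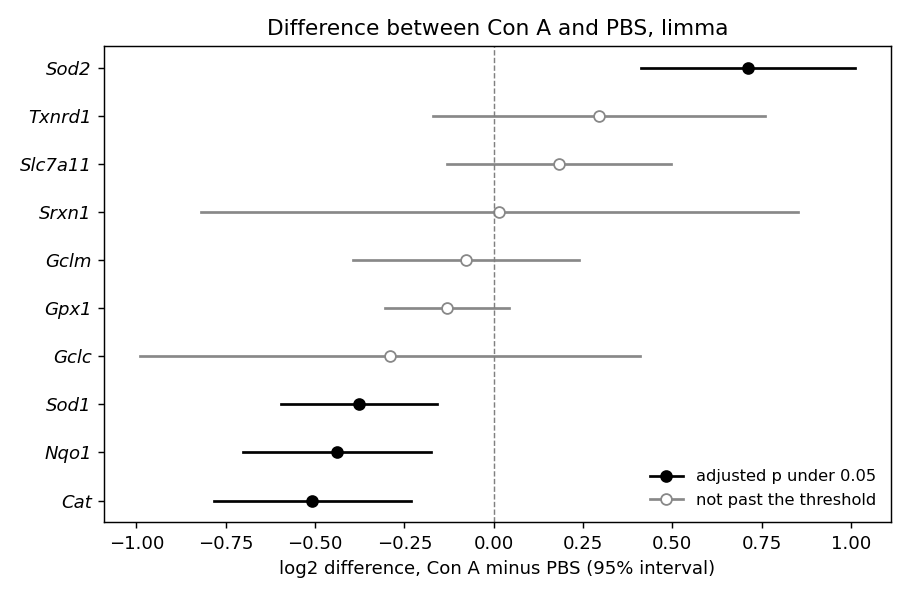
Difference between Con A and PBS for each of the 10 genes on the log2 scale, as points with 95% intervals of the limma fit. Filled black points passed the threshold (Sod2 at 0.71, Sod1 at -0.38, Nqo1 at -0.44 and Cat at -0.51), and open grey points did not; the intervals of Gclc and Srxn1 are the widest.

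None of the 3 glutathione synthesis genes passed the test. Slc7a11 encodes the light chain of the cystine importer, which supplies cysteine, and it stood at 12.46, 12.74 and 12.72 after Con A, against 12.43, 12.24 and 12.70 after PBS. PBS replicate 3 lay among the Con A arrays. The difference was 0.18 (95% interval -0.13 to 0.50, adjusted p = 0.465). Slc7a11 is a known target of both NRF2 and ATF4, the factor of the amino acid response. Its promoter is shown because only this gene, of the 9 with a promoter, matched the C/EBP-ATF response element TGATGNAA. Of the 15614 genes, 3.14% held such a match. Slc7a11 had 2 matches, in opposite orientation, beginning 66 and 47 bases before the start (chr3:50443623-50443709, minus strand, printed along the gene).
Slc7a11: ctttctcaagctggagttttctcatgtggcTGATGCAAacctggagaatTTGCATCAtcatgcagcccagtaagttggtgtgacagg

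Gclc and Gclm encode the catalytic and the modifier subunit of glutamate-cysteine ligase, the enzyme of the first and limiting step of glutathione synthesis. Gclc stood at 9.46, 10.18 and 10.37 after Con A, against 10.14, 9.89 and 10.84 after PBS. The lowest value was that of Con A replicate 1 and the highest that of PBS replicate 3, and the other 4 arrays were mixed. Its difference of -0.29 had an interval of -0.99 to 0.41 (adjusted p = 0.615), wide enough to hold both falls and rises. Gclm stood at 12.30, 12.63 and 12.64 after Con A, against 12.49, 12.47 and 12.84 after PBS, with the same 2 arrays at the ends. The difference was -0.08 (95% interval -0.39 to 0.24, adjusted p = 0.788), and its sign turned when Con A replicate 1 (0.03) or PBS replicate 3 (0.04) was left out.

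The thioredoxin system genes also missed the threshold. Txnrd1, the cytosolic selenoenzyme that recharges thioredoxin, stood at 10.92, 11.30 and 11.26 after Con A, against 10.70, 10.59 and 11.32 after PBS. PBS replicate 3 was above every Con A array, whereas the other 2 PBS arrays were below every one of them. The difference was 0.29 (95% interval -0.17 to 0.76, adjusted p = 0.427), and without PBS replicate 3 it was 0.52 and passed (adjusted p = 0.0388). Srxn1, sulfiredoxin, which repairs overoxidised peroxiredoxins, stood at 9.67, 10.53 and 10.82 after Con A, against 9.99, 9.99 and 10.99 after PBS. Its values ran from Con A replicate 1 at the bottom to PBS replicate 3 at the top, so that the means were 10.34 ± 0.60 after Con A and 10.32 ± 0.58 after PBS. The difference of 0.02 had an interval of -0.82 to 0.85 (adjusted p = 0.987) and was negative without Con A replicate 2 (-0.08), Con A replicate 3 (-0.22), PBS replicate 1 (-0.15) or PBS replicate 2 (-0.15).

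Windows are shown of Gclm (chr3:122245393-122245461, plus strand) and of the 1 promoter of Txnrd1, among 3, with a match (chr10:82859084-82859152, plus strand). Of the 9 genes with a promoter, these genes and Sod1 held the antioxidant response element core. Capitals mark the match, read on the opposite strand in each.
Gclm: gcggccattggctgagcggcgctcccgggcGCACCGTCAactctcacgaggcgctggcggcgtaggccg
Txnrd1: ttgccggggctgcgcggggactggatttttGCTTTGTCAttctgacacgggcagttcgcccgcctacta
Neither gene passed the test between Con A and PBS.

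The 5 genes of glutathione synthesis and the thioredoxin system varied more between arrays of 1 group than the others did. The SD within groups was 0.59 for Srxn1, 0.49 for Gclc, 0.31 for Txnrd1 and 0.20 for Gclm and for Slc7a11, beside a median of 0.12 over all genes and of 0.12 over those with a mean of at least 7. In this spread Srxn1 lay at percentile 98.9 of all genes, Gclc at percentile 98.2 and Gpx1, with an SD of 0.06, at percentile 12.2. The deviations ran together. Among the Con A arrays 7 of the 10 genes were lowest in replicate 1, as were 32.2% of all genes, and among the PBS arrays 9 of the 10 were highest in replicate 3, as were 32.6% of all genes. Gpx1 was the exception in PBS, with its lowest PBS value in replicate 3. Relative to its own group mean, Srxn1 stood at -0.67 in Con A replicate 1 and at 0.67 in PBS replicate 3, and Gclc at -0.55 and 0.55. On the same arrays the mean of the NF-kB target list was lowest of its group in Con A replicate 1 (11.76 against 12.03 and 11.99) and highest of its group in PBS replicate 3. The monocytic marker mean was lowest of its group in Con A replicate 1, but in PBS replicate 3 it was 10.99, between PBS replicate 1 at 11.04 and PBS replicate 2 at 10.63. Their part in the spread was not tested.

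**Figure D3:**
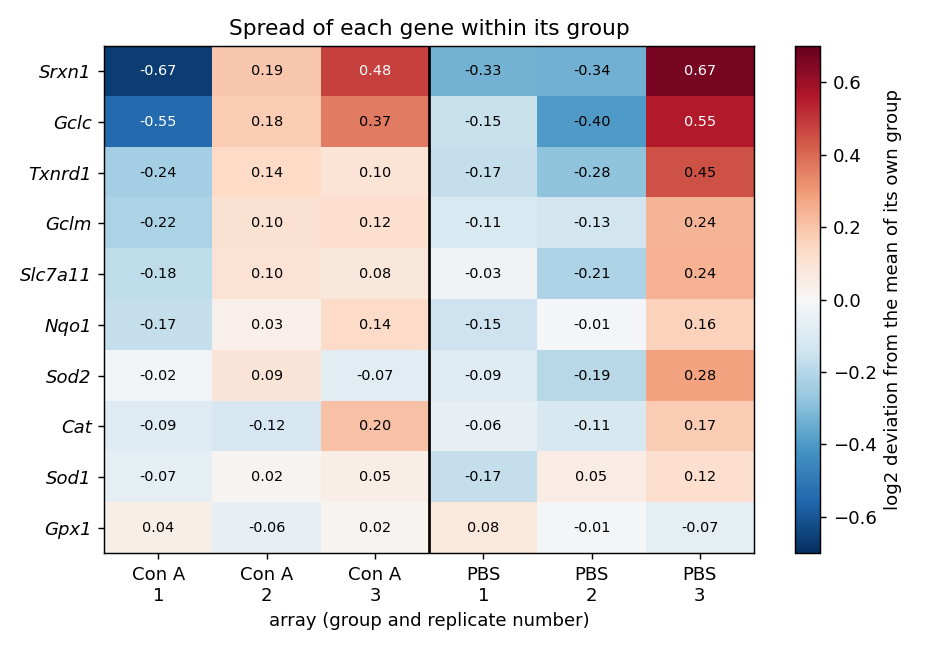
Deviation of each array from the mean of its own group for the 10 genes (log2 units; red above and blue below the group mean), with Con A arrays left of the line and PBS arrays right of it. Srxn1 and Gclc run from -0.67 and -0.55 in Con A replicate 1 to 0.67 and 0.55 in PBS replicate 3, while Gpx1 stays within 0.08 of its group means.

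The wider pathway was read from 9 lists, with 75 distinct genes tested, the 10 included. All 9 lists were chosen with earlier results of these arrays known, so their counts are no independent evidence of direction. Of the other 65 genes, 12 rose, 7 fell and 46 did not pass the test, where 4.59% of all genes rose and 7.22% fell. Of the 12 that rose, 6 are the NF-kB target list. In the peroxide removal list, 1 of 10 genes fell, which was Cat, and the median was -0.11. Prdx2, a cytosolic peroxiredoxin, had the largest other difference, -0.41 (10.34 ± 0.21 after Con A and 10.75 ± 0.20 after PBS), and did not pass (adjusted p = 0.116). In the thioredoxin system list, 0 of 9 genes passed by limma, and 2 had an unadjusted p under 0.05, with a median of 0.02. Txnrd3 had its largest difference, 0.33 (6.57 ± 0.16 after Con A and 6.25 ± 0.04 after PBS, adjusted p = 0.0698), below the array medians. Thioredoxin itself, Txn1, stood at 13.86, 13.91 and 13.92 after Con A, against 13.83, 13.82 and 13.83 after PBS, at the top of the scale (difference 0.07, adjusted p = 0.588).

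Of 7 genes of glutathione synthesis and recycling, 1 rose and 6 did not pass, where 4.59% of all genes rose. Ggct, which encodes the cyclotransferase that breaks gamma-glutamyl peptides down to oxoproline, stood at 9.11, 9.48 and 9.45 after Con A, against 8.23, 8.06 and 8.62 after PBS. All Con A arrays were above all PBS arrays, and the rise of 1.04 (95% interval 0.66 to 1.43, adjusted p = 0.00745) kept its call with any 1 array left out. Gss, the glutathione synthetase gene, had the most negative difference of the list, -0.85 (95% interval -1.42 to -0.27). It stood at 8.05 ± 0.26 after Con A and 8.90 ± 0.50 after PBS, without overlap, and did not pass by limma (adjusted p = 0.07). Gsr, which recycles oxidised glutathione, stood at 12.95 ± 0.03 after Con A and 13.12 ± 0.06 after PBS and did not pass (difference -0.16, adjusted p = 0.199).

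Of 5 tested genes on the NADPH supply list, 2 fell and 3 did not pass, with a list median of -0.26. Over all genes 7.22% fell, and 12.3% of those with a mean of at least 7. Taldo1 and Tkt on this list encode pentose phosphate enzymes that make no NADPH themselves. Of the rest tested, Idh1 fell, while Pgd and Me1 did not pass (adjusted p = 0.055 and 0.943 by limma). Another listed gene, G6pdx, had no matched row. Idh1, the NADP-dependent isocitrate dehydrogenase of the cytosol, stood at 10.38, 10.20 and 10.39 after Con A, against 12.10, 12.11 and 11.72 after PBS. The gap between the groups, more than a full log2 unit, was far wider than the spread within either. Idh1 fell 3.15-fold (log2 difference -1.66, 95% interval -1.95 to -1.37, adjusted p = 0.000808), and it passed in all 17 alternative settings, with adjusted p up to 0.0338. Taldo1, the transaldolase of the pentose phosphate pathway, fell by 0.31 (11.39 ± 0.03 after Con A and 11.70 ± 0.08 after PBS, adjusted p = 0.0333). Its call was kept without PBS replicate 3 (0.0253) and ended when any other array was omitted, with adjusted p reaching 0.118.

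Among 10 genes that control NRF2, 2 rose and 8 did not pass, with a median of 0.09, where 4.59% of all genes rose. Nfe2l2 itself stood at 12.35, 12.55 and 12.40 after Con A, against 12.30, 12.20 and 12.53 after PBS, and the groups overlapped (difference 0.09, 95% interval -0.16 to 0.33, adjusted p = 0.679). Keap1, its inhibitor, differed by -0.11 (95% interval -0.30 to 0.09, adjusted p = 0.495), and Bach1, a repressor that competes with NRF2 at the same elements, by 0.23 (95% interval -0.04 to 0.51, adjusted p = 0.284). The 2 genes that rose encode small MAF proteins, which pair with NRF2 or BACH1 or bind DNA as dimers of their own. Maff stood at 8.14, 8.63 and 9.01 after Con A, against 6.85, 7.06 and 7.76 after PBS, and rose by 1.37 (adjusted p = 0.0206). Mafk rose by 0.52 (9.73 ± 0.16 after Con A and 9.22 ± 0.21 after PBS, adjusted p = 0.0418). The Maff call ended without Con A replicate 2 or 3 or PBS replicate 1 or 2 (adjusted p up to 0.0867), and the Mafk call ended unless PBS replicate 3 was the array left out (adjusted p up to 0.148).

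Of 14 other NRF2 target genes, Nqo1 included, 5 fell and 9 did not pass, where 7.22% of all genes, and 12.3% of those with a mean of at least 7, fell. The list had 12 negative differences among its 14, with a median of -0.30 beside 0.02 over all genes. It was chosen with earlier results of these arrays known, so this count is no independent evidence of direction. Osgin1, an oxidative stress-induced growth inhibitor, stood at 9.29, 9.52 and 9.89 after Con A, against 10.95, 10.89 and 10.97 after PBS. Every Con A array was about a full log2 unit or more below the PBS arrays, which were nearly alike. Osgin1 fell 2.59-fold (log2 difference -1.37, 95% interval -1.71 to -1.04, adjusted p = 0.00165), and passed in all 17 alternative settings, with adjusted p up to 0.0482. Gstp1, a glutathione S-transferase gene whose signal may be shared with its near-identical copy Gstp2, fell by 1.11 (9.32 ± 0.29 after Con A and 10.43 ± 0.44 after PBS, adjusted p = 0.0221), and its call ended without Con A replicate 1 or 2 (adjusted p up to 0.0948). Cbr1, a carbonyl reductase gene, fell by 0.59 (adjusted p = 0.00958) and kept its call with any 1 array left out. Blvra, the biliverdin reductase gene, fell by 0.32 (adjusted p = 0.0337), a call that ended with any 1 array left out, at adjusted p of 0.0558 to 0.107. Hmox1, heme oxygenase 1, stood at 12.43, 13.12 and 13.07 after Con A, against 12.40, 12.45 and 13.13 after PBS, so that the groups overlapped, with PBS replicate 3 at the top (difference 0.21, 95% interval -0.36 to 0.79, adjusted p = 0.654). Monocytic markers were lower after Con A over the same arrays, in 5 of 5 genes, of which 3 passed. Their part in these falls was not tested.

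Of 12 genes of the ATF4 and amino acid response, 3 rose, 1 fell and 8 did not pass, with a median of 0.22. Over all genes, 4.59% rose and 7.22% fell, and 19.6% of those with a mean of at least 7 passed in either direction. Phgdh, the first enzyme of serine synthesis, rose by 0.89 (8.38 ± 0.26 after Con A and 7.49 ± 0.23 after PBS, adjusted p = 0.0116), Ddit4, an inhibitor of mTORC1, by 0.85 (adjusted p = 0.00796) and the amino acid transporter gene Slc7a5 by 0.68 (adjusted p = 0.0443). Sesn2, sestrin 2, which is known to aid the renewal of peroxiredoxins and to hold back mTORC1, fell by 0.46 (9.61 ± 0.20 after Con A and 10.07 ± 0.03 after PBS, adjusted p = 0.0334). Ddit4 kept its call with any 1 array left out. Phgdh lost it without PBS replicate 1 (0.0558), Slc7a5 without Con A replicate 1 or 3 or PBS replicate 1 or 2, and Sesn2 in all cases but the omission of PBS replicate 3.

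All 6 NF-kB target genes set beside Sod2 rose, with a median of 1.12, where 4.59% of all genes rose. Icam1, an adhesion molecule gene, rose by 1.90 (adjusted p = 0.00559) and Tnfaip3, which encodes the NF-kB inhibitor A20, by 1.74 (adjusted p = 0.00879). The NF-kB subunit genes Relb and Nfkb2 rose by 1.20 and 1.03 (adjusted p = 0.00634 and 0.0103). The list was chosen with earlier results of these arrays known, so its count is no independent evidence of direction. As with Sod2, PBS replicate 3 was the highest PBS array in each of these 4 genes, at 11.46 for Icam1 against 10.59 and 10.29 in PBS replicates 1 and 2. Of the 4, Nfkb2 lost its call without Con A replicate 2 or PBS replicate 1 (adjusted p up to 0.0541).

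**Figure D4:**
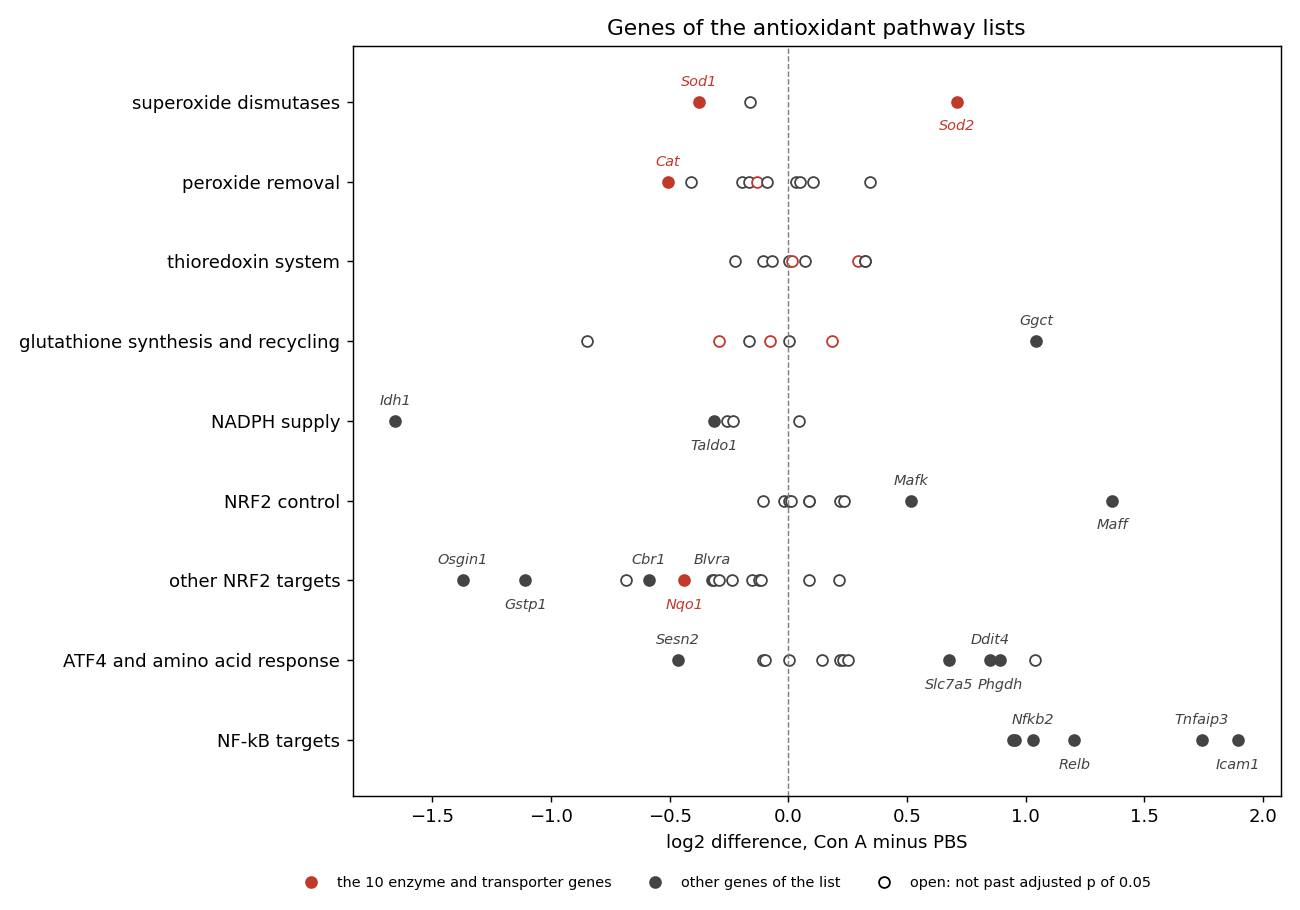
Log2 difference between Con A and PBS for each gene of the 9 pathway lists, 1 point per gene, with the 10 enzyme and transporter genes in red and other genes in grey. Filled points passed the threshold and are named, apart from 2 of the 6 NF-kB targets; the highest difference is that of Icam1 at 1.90 and the lowest that of Idh1 at -1.66.

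The genes whose profiles were most like those of the 4 genes that passed were found by the root mean square difference between mean-centred log2 values over the 6 arrays, among 10339 other named genes with a mean of at least 7. For Sod2 these were Clec4e, which encodes the C-type lectin receptor Mincle, and Ttc19, each at 0.06. For Cat they were Slc25a43 at 0.03 and Zfp664 at 0.05. For Sod1 they were Sars at 0.04 and Siae at 0.05, and for Nqo1 they were Chid1 at 0.04 and Dipk2a at 0.05.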

How the data were processed

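The table deposited by the authors holds log2 expression per probe set of an Affymetrix mouse gene array. The submitters' processing notes list RMA and Partek, with no version. RMA subtracts background, equalises the distributions of arrays and summarises probes, and it compresses differences near the top and bottom of the scale. The number of arrays limits the precision, and the deposited values hold no detection calls. Of 35556 rows, 21789 carried 1 gene symbol in the platform annotation (1621 several, 12146 none), compared with RefSeq names of GRCm38.p6 through Entrez numbers (0 symbols changed, 91 rows unmatched). The row with the highest mean stood for a gene. The test was limma 3.58.1 (R 4.3.3, lmFit and eBayes, two-sided, Benjamini-Hochberg over 19938 genes, threshold 0.05), tested on simulated data. Differences are Con A minus PBS. Plots were drawn with matplotlib 3.10.9 and tables with pandas 2.3.3 under Python 3.11.15. The array annotation has a genome build not given in the sources used here. There were 0 identical pairs of arrays.

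The 10 genes and the lists were chosen with earlier results of these data known. All 10 genes are named. From each pathway list up to 4 other genes with the largest difference past the threshold are named, or the largest difference where none passed, besides Nfe2l2, Keap1, Bach1, Sod3, Gsr, Txn1 and Hmox1. Gss is named outside this rule, after its values were seen. The lists held 80 pathway entries (76 matched) and 50 marker entries (41 matched, for sort, monocytic, hepatocyte, Kupffer, erythroid, T cell and EL4, and eosinophil cells). T cell and EL4 markers had 0 of 6 genes past the threshold by limma (1 at an unadjusted p under 0.05). Eosinophil markers had 3 of 5, all higher after Con A, where 4.59% of all genes rose. Hepatocyte and Kupffer lists had 0 of 9 and 0 of 8 (0 at an unadjusted p under 0.05 in each), and erythroid markers 0 of 4 (1 unadjusted). Alternatives were a filter on low genes, the choice and number of rows, renormalization, the variance prior, array weights, the replicate number as a block, and each array left out.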

Additional observations from a re-analysis of the deposited data

How the results depend on the processing

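None of the 4 calls held in every setting. Adjusted p by limma was 0.0459 for Nqo1, 0.0413 for Sod1 and 0.0327 for Cat, near the threshold, and 0.0125 for Sod2. Sod2 passed in 14 of 17 alternatives, Cat in 10, Sod1 in 8 and Nqo1 in 5, and none of these 4 differences turned sign. With 1 array left out, 0 to 2 of the 10 genes passed (0 without Con A replicate 2, where 4 had an unadjusted p under 0.05), 1140 to 2765 of all genes and 11 to 24 of the 75 pathway genes. All rows tested gave 1 of the 10 genes and 15 pathway genes. Median centring gave 2 of the 10. Without moderation of the variances 0 of the 10 passed (4 unadjusted), with 2 pathway genes and 671 of all genes, and Idh1 and Osgin1 were those 2. Leaving out both Con A replicate 2 and PBS replicate 3, chosen after seeing the data, gave 1 of the 10, which was Sod2 (adjusted p = 0.00633). With 1 array left out, the differences of Gclm ran from -0.142 to 0.041 and those of Srxn1 from -0.22 to 0.35, across 0.

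The replicate numbers carry no stated pairing. Deviations from group means correlated between same-numbered arrays at 0.23, -0.17 and 0.56 over genes, and Con A replicate 1 correlated best with PBS replicate 2 (0.54). Under a replicate block 2539 genes passed in place of 2355, with 25 pathway genes in place of 23, and the calls of the 10 genes did not change (4 passed).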
